A study of Mus musculus with 10 samples.

Results

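SNARE proteins are the small membrane-anchored proteins whose coiled helices pull a vesicle and its target membrane together until they fuse. The SNARE genes described here were the measured genes whose array annotation gave a single symbol of the syntaxin (Stx) or vesicle-associated membrane protein (Vamp) series, or 1 of 14 further symbols: Snap23, Snap25, Snap29, Snap47, Bet1, Bet1l, Gosr1, Gosr2, Sec22b, Ykt6, Vti1a, Vti1b, Use1 and Bnip1. They came to 34 of the 19938 genes measured, each with 1 probe set. Of these, 3 are synaptic (Stx1a, Snap25 and Vamp1) and 31 serve other membranes. Vamp2 and Vamp9 had no probe set of a single symbol and are not analysed here. No SNARE gene lay within the duplicated interval described next.

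The question was whether SNARE gene levels differed between hippocampi of 5 Dp1Yey mice and 5 control littermates. All were males of 16 weeks, and RNA of the whole hippocampus, both sides together, was put on 1 Affymetrix Mouse Gene 1.0 ST array per mouse. Dp1Yey mice model Down syndrome through a segment of mouse chromosome 16 (Mmu16), bounded by Lipi and Zbtb21, that is duplicated, which is homologous to human chromosome 21 and gives them an extra copy of every gene in it. The sample labels place both groups on a C57BL/6N background while the study's methods name C57BL/6J, and the 2 sources also give different amounts of starting RNA.

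A SNARE complex is a bundle of helices that are classed as Qa, Qb, Qc or R by the residue at the centre of the bundle. At the synapse, Stx1a gives the Qa helix and Snap25 the Qb and Qc helices from the plasma membrane, and Vamp1 or Vamp2, also called synaptobrevins, give the R helix from the vesicle. The ATPase Nsf and its adaptors take the bundle apart after fusion so that its parts can be used again, and the other SNARE proteins do the same work between endoplasmic reticulum, Golgi, endosomes, lysosomes and the plasma membrane.

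The starts of 4 SNARE genes are shown because these genes had the smallest p-values among the 34. Each window of 300 bases spans a RefSeq start site in the GRCm38.p6 build, is written 5′ to 3′ on the strand of the gene, and has matches to a CCAAT box (CCAAT) or a GC box (GGGCGG), on either strand, in capitals. Snap29 lies at chr16:17405750-17406049 on the plus strand, Vamp1 at chr6:125215331-125215630 plus, Stx8 at chr11:67966208-67966507 plus and Stx11 at chr10:12964210-12964509 minus.
Snap29: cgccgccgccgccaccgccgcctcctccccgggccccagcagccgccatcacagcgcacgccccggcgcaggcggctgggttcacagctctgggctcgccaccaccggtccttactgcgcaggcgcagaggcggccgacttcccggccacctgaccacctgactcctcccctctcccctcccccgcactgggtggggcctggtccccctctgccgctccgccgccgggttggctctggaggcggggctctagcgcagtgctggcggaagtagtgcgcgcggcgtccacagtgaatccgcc
Vamp1: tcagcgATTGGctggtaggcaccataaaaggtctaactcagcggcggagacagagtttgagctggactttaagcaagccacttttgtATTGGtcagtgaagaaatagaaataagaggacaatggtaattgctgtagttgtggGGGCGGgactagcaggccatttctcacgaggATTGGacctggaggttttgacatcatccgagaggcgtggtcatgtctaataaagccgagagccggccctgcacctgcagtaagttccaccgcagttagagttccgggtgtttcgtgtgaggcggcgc
Stx8: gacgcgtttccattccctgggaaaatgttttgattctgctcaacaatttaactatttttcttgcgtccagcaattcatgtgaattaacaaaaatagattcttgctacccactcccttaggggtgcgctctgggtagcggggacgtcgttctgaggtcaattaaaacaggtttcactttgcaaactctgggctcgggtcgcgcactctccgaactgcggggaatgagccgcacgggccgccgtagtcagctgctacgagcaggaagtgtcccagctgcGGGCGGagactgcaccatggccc
Stx11: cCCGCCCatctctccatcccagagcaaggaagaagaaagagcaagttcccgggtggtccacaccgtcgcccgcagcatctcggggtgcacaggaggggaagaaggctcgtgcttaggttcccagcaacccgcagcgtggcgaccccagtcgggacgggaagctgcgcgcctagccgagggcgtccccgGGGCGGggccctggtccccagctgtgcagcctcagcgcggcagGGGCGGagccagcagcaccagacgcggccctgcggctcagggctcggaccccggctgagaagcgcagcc
The Vamp1 window held 3 CCAAT boxes and 1 GC box, the Stx8 window 1 GC box and the Stx11 window 3 GC boxes, with no overlap between the 2 motifs. The Snap29 window held neither, although its GC content was 75.3%. None of the 4 held TATAAA or TGACG, the core of the cAMP response element.

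Windows of 31 of the 34 SNARE genes were in the RefSeq table, 38 in all. A GC box was found in 63.2% of them and in 35.7% of all 32851 windows of the table. CCAAT was found in 39.5% against 37.4%, TGACG in 31.6% against 20.8% and TATAAA in 7.89% against 13.6%. The SNARE windows had a median of 17.5 CpG dinucleotides, against 7 over all windows, and a median GC content of 56.7% against 52.7%. These matches describe letters in a window and say nothing about binding.

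Across the 10 arrays, values are log2 RMA values, so a difference of 1 is a doubling. The median of an array was 6.31 to 6.37 in Dp1Yey and 6.35 to 6.44 in control mice, and its interquartile range was 3.47 to 3.53 and 3.40 to 3.51. Control replicates 1 and 2 had the narrowest ranges (3.44 and 3.40), and for SNARE genes given in every array the difference without them is also given where it changed sign or moved by over 1.5 times, and for the genes of smallest p. Of 19938 genes, 0.797% passed limma at an adjusted p under 0.05, 0.687% as higher and 0.11% as lower in Dp1Yey. All 9 markers of pyramidal and granule neurons were above background, and the habenula marker Gpr151 was at background. Of 48 cell type markers, 0 passed limma and 6 passed the rank statistic, which 3.46% of all genes passed. At an unadjusted p under 0.05 (limma) there were 7 higher and 5 lower, 25% of the markers against 19.5% of all genes. The 5 lower ones were the choroid plexus markers, and the rank statistic called 4 of them. The smallest p of the markers was that of Wfs1, in the neuron list, with a difference of 0.42 (adjusted p = 0.0533, limma). In whole tissue, fewer cells of a type and less RNA per cell cannot be told apart.

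No SNARE gene passed the test. Limma called 0 of 34 at an adjusted p under 0.05, against 0.797% of all genes, and the smallest adjusted p was 0.117, for Snap29. At an unadjusted p under 0.05 there were 7 SNARE genes, or 20.6%, close to the 19.5% of all genes. Of these, 6 were higher in Dp1Yey (Snap29, Vamp1, Stx8, Bet1, Ykt6 and Vamp5), where the share of all genes was 8.75%, and 1 was lower (Stx11), where it was 10.8%. The rank statistic of the study, rewritten here, called 1 SNARE gene, Stx11 as lower. It called 3.46% of all genes, 2.46% as higher and 0.993% as lower. Stx11 had a mean of 6.44 over the 10 arrays. Of 4849 genes above background with a mean of 5 to 7, 1016 were lower at an unadjusted p under 0.05 (limma). The rank statistic called 95 of these 4849 genes as lower, and their median difference was -0.055. The 95% confidence intervals of the 34 genes reached up to 1.28-fold of control at the upper end and down to 0.723-fold at the lower.

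Most SNARE genes had small positive differences. The mean was higher in Dp1Yey for 28 of the 34 genes, with a median difference of 0.044 on the log2 scale, against 42.1% of all genes and a median of -0.015. Only 26.1% of all genes above background with a mean of 5 to 7 were higher in Dp1Yey, so genes with a mean over 7 give a nearer reference. Among these, 27 of 32 SNARE genes were higher with a median of 0.048, against 55.8% of 10313 genes and a median of 0.013. These genes were measured on the same 10 arrays and are not independent of each other. When each array's interquartile range entered the fit as a covariate, called the interquartile range covariate below, 20 of the 34 were higher, with a median of 0.029. That range was on average wider in Dp1Yey (3.51) than in control mice (3.46). The covariate can therefore also take up part of a difference between the groups.

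**Figure D1:**
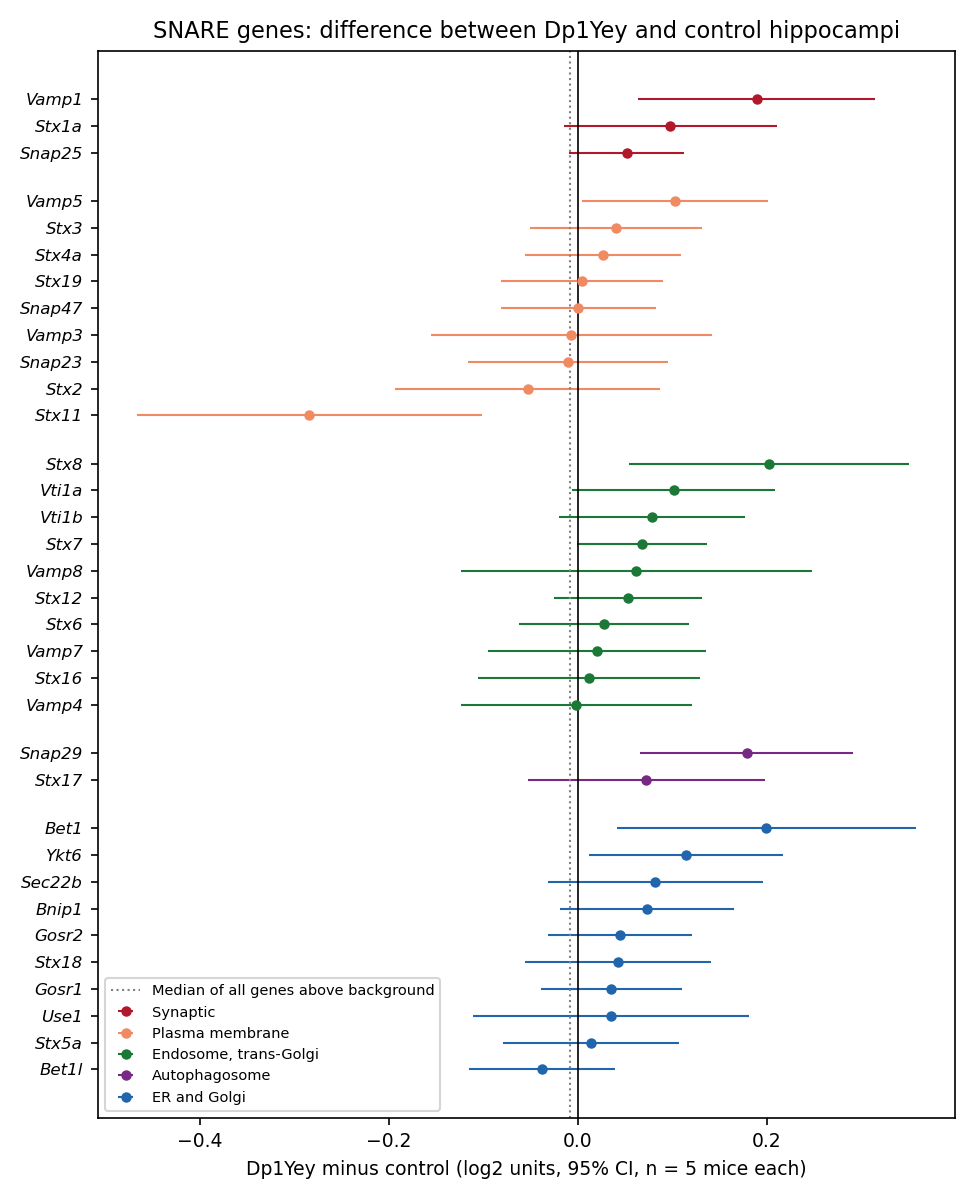
Difference between 5 Dp1Yey and 5 control mice for each of the 34 SNARE genes, in log2 units, grouped by the membrane they serve. Points are differences, bars are 95% confidence intervals from limma, and the dotted line is the median of all genes above background. Stx11 is farthest to the left at -0.28, and the points of 28 genes lie to the right of 0.

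Of the synaptic genes, Snap25 (Entrez 20614, chr2, 136713439 to 136782428) encodes the plasma membrane protein that gives the complex its Qb and Qc helices. Its level was 13.62, 13.58, 13.61, 13.60 and 13.59 in Dp1Yey replicates 1 to 5 and 13.50, 13.55, 13.56, 13.56 and 13.57 in control replicates 1 to 5. Every Dp1Yey value lay above every control value, by a narrow margin. The difference was 0.052 (95% CI -0.0092 to 0.11, adjusted p = 0.321, limma), or 1.04-fold. Snap25 and the endosomal Stx8 were the only SNARE genes whose groups did not overlap, where 2.4% of all genes had every Dp1Yey value above the controls, 2.46% had every one below, and 4.86% did not overlap.

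Vamp1 (Entrez 22317, chr6, 125215581 to 125222306) encodes synaptobrevin 1, a vesicle SNARE of fast-spiking and other neurons. It measured 10.40, 10.39, 10.50, 10.27 and 10.40 in Dp1Yey and 10.13, 10.10, 10.35, 10.30 and 10.13 in control mice. The groups overlapped through Dp1Yey replicate 4 and control replicates 3 and 4. Vamp1 had the highest difference of the synaptic genes, 0.19 (95% CI 0.064 to 0.32, adjusted p = 0.129, limma), and it was 0.13 without control replicates 1 and 2. Beside it, 6 of 6 interneuron markers had a higher mean in Dp1Yey and 0 were called, and the mean over the list was 9.83 to 9.95 in Dp1Yey and 9.72 to 9.85 in control mice. Of these, Gad1 and Gad2 hardly differed, by 0.00047 and 0.0075, and the highest difference was 0.26, for Vip. Pvalb, the parvalbumin of fast-spiking interneurons, measured 9.27, 9.19, 9.36, 9.30 and 9.05 in Dp1Yey and 8.87, 8.90, 9.28, 9.34 and 9.17 in control mice. The part of these cells in the Vamp1 values was not tested.

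Stx1a (Entrez 20907, chr5, 135023482 to 135051100) encodes syntaxin 1A, the Qa partner of Snap25 at release sites. Its levels were 8.96, 8.85, 9.07, 8.87 and 8.89 in Dp1Yey and 8.70, 8.79, 8.87, 8.87 and 8.93 in control mice. The groups overlapped, and the difference of 0.098 (95% CI -0.015 to 0.21) did not pass (adjusted p = 0.312, limma). It was 0.040 when control replicates 1 and 2 were left out and 0.033 under the interquartile range covariate. A probe set annotated to both Ubr3 and Vamp2, which names neither gene here, measured 12.80 ± 0.041 in Dp1Yey mice and 12.74 ± 0.038 in controls (mean ± SD, n = 5 each). For the 3 synaptic genes the median difference was 0.098, and for the 31 other SNARE genes it was 0.041. Leaving out control replicates 1 and 2 gave medians of 0.040 and 0.031, and the interquartile range covariate gave 0.037 and 0.018. The intervals of the synaptic genes ran from 0.990-fold to 1.24-fold.

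**Figure D2:**
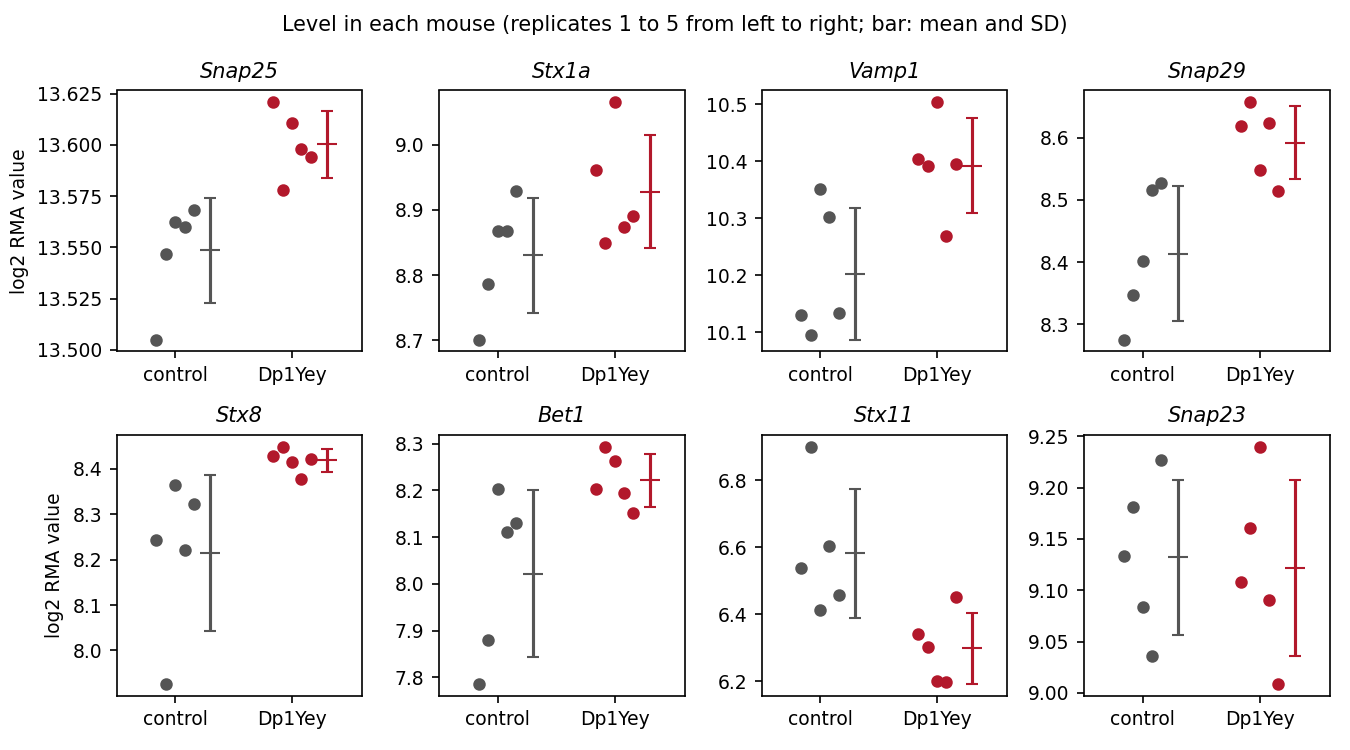
Level of 8 SNARE genes in each mouse, as log2 RMA values on an axis of its own for each gene. Points are mice, with replicates 1 to 5 from left to right in each group, and bars are the mean and SD (n = 5). The groups are apart for Snap25 and Stx8 and overlap for the other 6, and control replicate 2 is the lowest point for Stx8 and the highest for Stx11.

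The SNARE genes of the plasma membrane outside the synaptic set showed no common direction, with 5 of 9 higher and a median of 0.00065. Stx11 (Entrez 74732, chr10, 12938217 to 12964498) encodes a syntaxin that serves granule release in cytotoxic immune cells. It measured 6.34, 6.30, 6.20, 6.20 and 6.45 in Dp1Yey and 6.54, 6.90, 6.41, 6.60 and 6.46 in control mice. Only Dp1Yey replicate 5 reached into the control values, and control replicate 2 was the highest of all. The difference was -0.28 (95% CI -0.47 to -0.10, adjusted p = 0.121, limma), or 0.821-fold. It was -0.19 without control replicates 1 and 2, and -0.088 under the interquartile range covariate. Microglial markers, in the brain's own immune cells, had a higher mean for 6 of 7 genes with 0 called, at list means of 8.65 to 8.73 in Dp1Yey and 8.52 to 8.69 in control mice. Choroid plexus markers were lower in 5 of 5 with 0 called by limma, at list means of 7.30 to 8.01 in Dp1Yey and 7.58 to 9.07 in control mice. Their median difference was -0.58, all 5 had an unadjusted p under 0.05 (limma), and the rank statistic called 4 as lower. Of all genes, 10.8% were lower at that p and 0.993% by the rank statistic. The part of either cell type in the Stx11 values was not tested.

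Snap23 (Entrez 20619, chr2, 120567655 to 120601255) is the widely expressed relative of Snap25. It measured 9.11, 9.16, 9.24, 9.09 and 9.01 in Dp1Yey and 9.13, 9.18, 9.08, 9.04 and 9.23 in control mice. The groups overlapped almost fully, with a difference of -0.010 (95% CI -0.12 to 0.096, adjusted p = 0.921, limma), and the interval of the fold ran from 0.922 to 1.07. Without control replicates 1 and 2 the difference was 0.0065. Vamp5, a vesicle SNARE first known from muscle, measured 7.68, 7.73, 7.71, 7.71 and 7.82 in Dp1Yey and 7.63, 7.69, 7.57, 7.51 and 7.73 in control mice. Its groups overlapped, and its difference of 0.10 (95% CI 0.0045 to 0.20, adjusted p = 0.24, limma) was 0.13 without control replicates 1 and 2, and 0.13 under the interquartile range covariate. The other 6 genes of the group differed by -0.053 for Stx2, -0.0069 for the vesicle SNARE Vamp3, 0.00065 for Snap47, 0.027 for Stx4a, an older symbol of Stx4, 0.041 for Stx3 and 0.0042 for Stx19. Stx19 was the only SNARE gene at or below background, with means of 5.26 in Dp1Yey and 5.25 in control mice.

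The SNARE genes of endosomes and the trans-Golgi were higher in 9 of 10, with a median of 0.058 and 0 called. Stx8 (Entrez 55943, chr11, 67966411 to 68207148) encodes the Qc member of the late endosome complex. Its levels in Dp1Yey were 8.43, 8.45, 8.41, 8.38 and 8.42, and in control mice 8.24, 7.93, 8.36, 8.22 and 8.32. Every Dp1Yey value lay above the controls, and control replicate 2 was well below its group. The difference was 0.20 (95% CI 0.055 to 0.35, adjusted p = 0.155, limma). It was 0.12 without control replicates 1 and 2, and 0.068 under the interquartile range covariate.

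Its partners in the late endosome complex are the Qa member Stx7, the Qb member Vti1b and the R member Vamp8. Stx7 measured 10.02, 10.05, 10.08, 10.04 and 10.02 in Dp1Yey and 9.94, 10.002, 10.03, 9.93 and 9.97 in control mice, a difference of 0.068 (adjusted p = 0.259, limma). Vti1b measured 10.09, 9.95, 10.13, 10.10 and 10.07 against 9.91, 9.92, 10.10, 10.02 and 9.99, a difference of 0.079 (adjusted p = 0.344, limma) that was 0.031 without control replicates 1 and 2. In both genes the groups overlapped, Stx7 only through control replicate 3. Vamp8 measured 7.52, 7.55, 7.61, 7.70 and 7.62 in Dp1Yey and 7.79, 7.24, 7.43, 7.58 and 7.66 in control mice, and the control values spanned the whole Dp1Yey range. Its difference was 0.062 with a wide interval (95% CI -0.12 to 0.25).

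At the trans-Golgi, Vti1a, Stx6, Stx16 and Vamp4 form the complex that receives vesicles from endosomes. Vti1a measured 8.59, 8.65, 8.65, 8.55 and 8.64 in Dp1Yey and 8.53, 8.42, 8.69, 8.51 and 8.43 in control mice, a difference of 0.10 (adjusted p = 0.279, limma). Control replicate 3 was the highest of all 10 and the other 4 controls lay below every Dp1Yey value. Vamp4 measured 9.92, 9.78, 9.83, 9.85 and 9.88 against 9.74, 10.07, 9.81, 9.84 and 9.81, a difference of -0.0017 (95% CI -0.12 to 0.12) that was 0.033 without control replicates 1 and 2. Control replicate 2 was the highest value, and control replicate 1 the lowest. Stx6 and Stx16 differed by 0.028 and 0.012, the recycling endosome syntaxin Stx12 by 0.053 and Vamp7, a vesicle SNARE of lysosomes and growing neurites, by 0.020.

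Snap29 and Stx17 act together when an autophagosome fuses with a lysosome, with Vamp8 as the vesicle partner. Snap29 (Entrez 67474, chr16, 17406000 to 17430826) is on Mmu16 but outside the duplicated interval, which runs from 75540514 to 97962627. It measured 8.62, 8.66, 8.55, 8.62 and 8.51 in Dp1Yey and 8.28, 8.35, 8.40, 8.52 and 8.53 in control mice. Dp1Yey replicate 5 fell among the controls and the other 4 lay above them. The difference was 0.18 (95% CI 0.066 to 0.29, adjusted p = 0.117, limma), or 1.13-fold, and it was 0.11 without control replicates 1 and 2, and 0.091 under the interquartile range covariate. Stx17 differed by 0.073 (95% CI -0.052 to 0.20).

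Of the SNARE genes of the endoplasmic reticulum and Golgi, 9 of 10 were higher, with a median of 0.044 and 0 called. Bet1 (Entrez 12068, chr6, 4076899 to 4086998), the Qc member for traffic from the endoplasmic reticulum to the Golgi, measured 8.20, 8.29, 8.26, 8.20 and 8.15 in Dp1Yey and 7.79, 7.88, 8.20, 8.11 and 8.13 in control mice. Control replicates 1 and 2 held the lowest values, and control replicate 3 lay within the Dp1Yey range. The difference was 0.20 (95% CI 0.041 to 0.36, adjusted p = 0.18, limma) with all arrays and 0.074 without those 2.

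Ykt6, a lipid-anchored R SNARE of the Golgi, measured 9.19, 9.14, 9.20, 9.18 and 9.13 in Dp1Yey and 9.04, 8.94, 9.07, 8.99 and 9.22 in control mice. Its difference of 0.11 (adjusted p = 0.217, limma) came with control replicate 5 above every Dp1Yey value and the other controls below, and it was 0.072 without control replicates 1 and 2 and 0.018 under the covariate. Sec22b, an R SNARE between endoplasmic reticulum and Golgi, measured 10.11, 10.04, 10.06, 10.02 and 10.05 in Dp1Yey and 9.91, 9.79, 10.09, 10.03 and 10.03 in control mice, a difference of 0.082 (adjusted p = 0.386, limma) that was 0.0020 without those 2 arrays and -0.015 under the covariate. Bnip1, a Qb SNARE for return traffic to the endoplasmic reticulum, measured 8.42, 8.54, 8.44, 8.49 and 8.41 against 8.43, 8.27, 8.38, 8.38 and 8.48, a difference of 0.074 (adjusted p = 0.344, limma) that was 0.049 without those 2 arrays and 0.0059 under the covariate. All 3 genes had overlapping groups. The other members differed by 0.045 for Gosr2, 0.043 for Stx18, 0.036 for Gosr1, 0.035 for Use1, 0.014 for Stx5a, an older symbol of Stx5, and -0.038 for Bet1l.

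**Figure D3:**
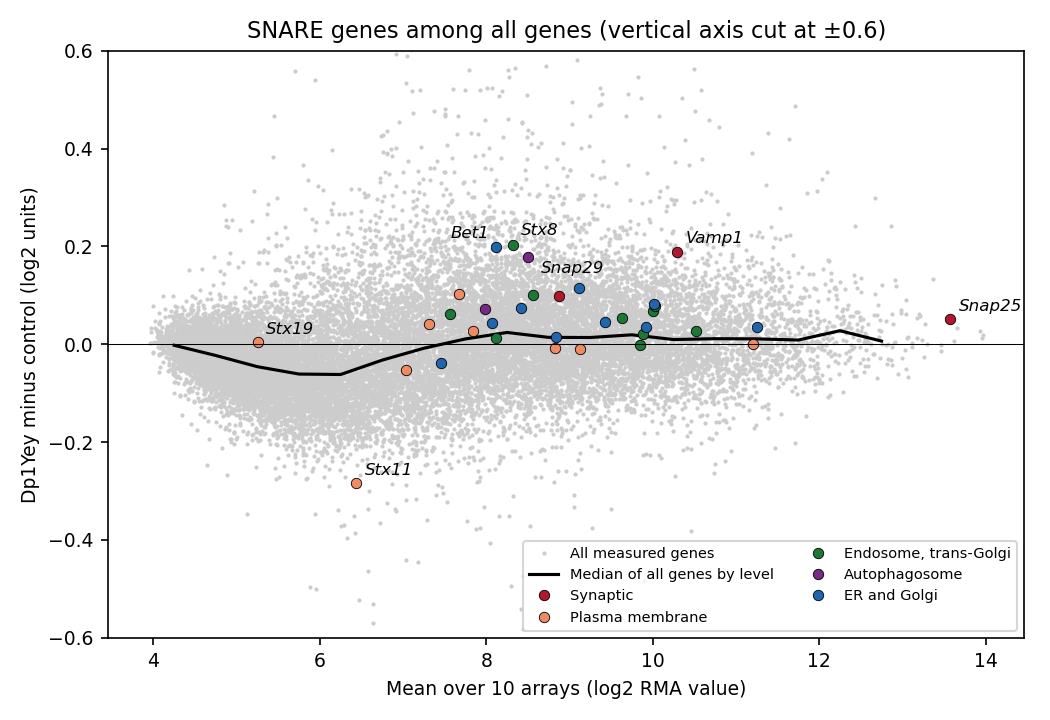
Difference between Dp1Yey and control mice (log2 units) against the mean over 10 arrays (log2 RMA value) for all measured genes in grey and the 34 SNARE genes in colour. The black line is the median of all genes in steps of level. The line lies below 0 at low levels, where Stx11 is found, and slightly above 0 from about 8 on, with most SNARE points above it.

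By helix class, 10 of 12 Qa genes, 5 of 5 Qb genes, 4 of 5 Qc genes, 6 of 8 R genes and 3 of 4 genes with both Qb and Qc helices had a higher mean in Dp1Yey. Their median differences were 0.034, 0.074, 0.035, 0.072 and 0.026. No class held a called gene, and the classes were not tested against each other.

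The SD of the control mice was larger than that of the Dp1Yey mice in 29 of the 33 SNARE genes above background (87.9%), against 72.9% of all 15162 such genes, and the median SD of the SNARE genes was 0.088 in control and 0.052 in Dp1Yey mice. Control replicate 2 held the lowest of the 10 values in 11 of the 33 genes and the highest in 6, and control replicate 1 the lowest in 10. Without these 2 arrays, 4 SNARE genes had an unadjusted p under 0.05, all among the 7 named above, or 11.8% where 13.4% of all genes did, and the smallest adjusted p was 0.233. With the interquartile range covariate there were 2, of which 1, Vamp5, was among the 7, or 5.88% where 7.30% of all genes did, and the smallest adjusted p was 0.588. The part of array quality in these differences was not tested further.

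**Figure D4:**
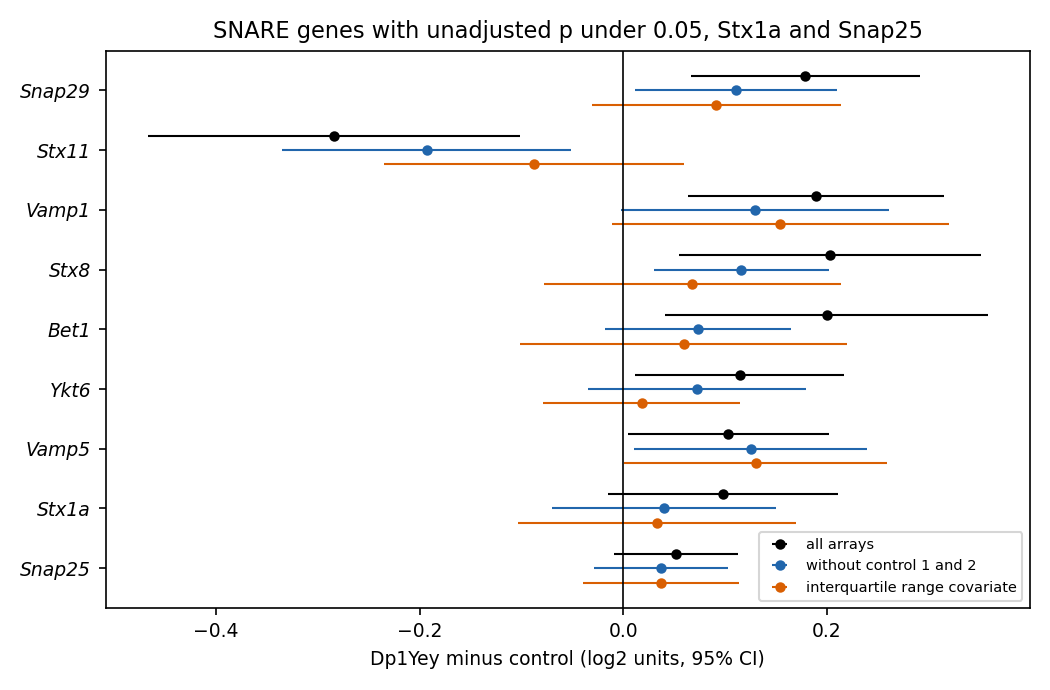
Difference between Dp1Yey and control mice (log2 units) with 95% confidence intervals for the 7 SNARE genes with an unadjusted p under 0.05 and for Stx1a and Snap25, under 3 fits. Black is all 10 arrays, blue leaves out control replicates 1 and 2, and orange adds each array's interquartile range as a covariate. Bet1 moves from 0.20 to 0.074 and 0.059, and Vamp5 stays between 0.10 and 0.13.

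Genes whose products act on SNARE complexes and 12 genes of vesicle membrane proteins were set beside the SNARE genes. Together they are called regulators here. Of these 61 genes, limma called 0, where 0.797% of all genes were called, and the rank statistic called 0. Unadjusted p-values under 0.05 belonged to 8 that were higher and 4 that were lower, 19.7% of the list against 19.5% of all genes, and the median difference was 0.00073. No regulator gene lay in the duplicated interval.

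Among the Sec1/Munc18 proteins and tomosyns, which bind syntaxins, 6 of 11 were higher. The smallest p-values were those of Vps33a, a Sec1/Munc18 protein of late endosomes (-0.11, adjusted p = 0.174, limma), Stxbp4 (0.14, 0.202) and Stxbp3, a partner of Stx4 (0.15, 0.219). Among the priming factors, which ready vesicles for release, 7 of 13 were higher. The vesicle GTPases Rab3b and Rab3c differed by 0.18 (adjusted p = 0.13, limma) and 0.12, and Unc13d, a priming factor of immune granules, by -0.089. Unc13d had a mean of 5.48, just above the background of 5.45. All genes above background with a mean of 5 to 7 had a median difference of -0.055.

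Of the calcium sensors and complexins, 7 of 18 were higher. Cplx2, a complexin that clamps and then aids the assembled complex, measured 10.55, 10.58, 10.54, 10.58 and 10.58 in Dp1Yey and 10.50, 10.33, 10.50, 10.47 and 10.43 in control mice. Its groups did not overlap, and its difference was 0.12 (95% CI 0.042 to 0.20, adjusted p = 0.125, limma), the smallest p of the regulators. The synaptotagmins Syt9 and Syt12 differed by -0.19 (adjusted p = 0.166, limma) and 0.10 (0.167). An unadjusted p under 0.05 (limma) was reached by 4 genes with a higher mean and 3 with a lower one. They made up 38.9% of the list, against 19.5% of all genes (8.75% higher and 10.8% lower). The 3 lower genes of the list included Syt4 (-0.11) and Syt17 (-0.16), named after their values were seen. Doc2b, a calcium sensor for spontaneous release that the study names, measured 9.78, 10.04, 9.82, 9.93 and 9.61 in Dp1Yey and 9.68, 9.58, 9.76, 9.69 and 9.71 in control mice. Its groups overlapped through Dp1Yey replicate 5, and its difference was 0.15 (95% CI 0.0038 to 0.30, adjusted p = 0.245, limma).

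The genes for taking SNARE complexes apart and for chaperoning them were higher in 7 of 7, by 0.020 to 0.13, with 0 called. Sncb, beta-synuclein of the presynapse, measured 11.39, 11.27, 11.35, 11.29 and 11.27 in Dp1Yey and 11.19, 11.12, 11.23, 11.26 and 11.26 in control mice. The groups did not overlap, though by a narrow margin, and the difference was 0.10 (adjusted p = 0.191, limma). Napa, the alpha-SNAP adaptor of Nsf, differed by 0.098 and Sncg, gamma-synuclein, by 0.13. Among the vesicle membrane proteins 5 of 12 were higher, with Syngr1 at 0.082, Sv2c at -0.11 and Syn3 at -0.041.

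**Figure D5:**
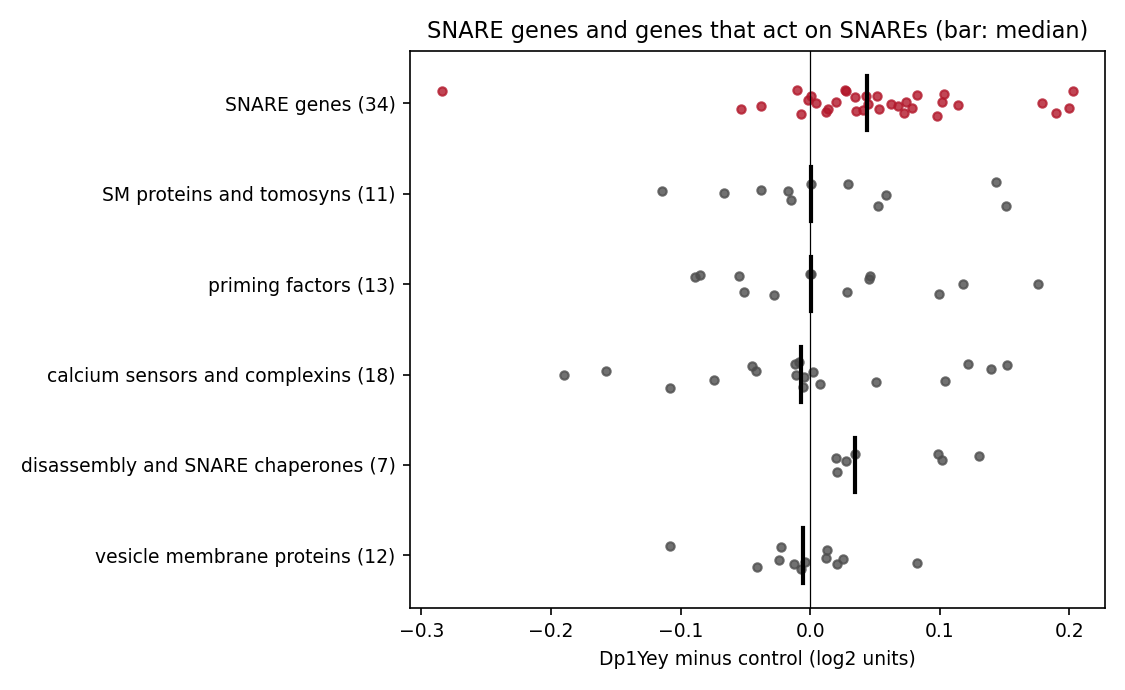
Difference between Dp1Yey and control mice (log2 units) for the 34 SNARE genes in red and the 5 regulator lists in grey. The number of genes is in brackets. The lists hold genes that act on SNARE complexes and, on a list of their own, vesicle membrane proteins. Points are genes, spread vertically only to keep them apart, and black bars are medians. The SNARE median is at 0.044, all 7 disassembly and chaperone genes lie above 0, and the other lists lie on both sides of 0.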

How the data were processed

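RNA of 10 hippocampi was measured on 10 arrays. The values that the authors deposited are on a log2 scale and were made by RMA (robust multi-array average), which corrects background, quantile-normalises probes and summarises them by probe set. RMA, limma and mm10 are named in the submitters' processing notes. Scanner files were not used here, so scan batches were not examined, and precision is limited by the number of arrays. Of 35556 probe sets, 21789 had a single symbol, and each gene took its probe set of highest mean. Groups followed the sample titles. The labels call the mice biological replicates.

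Differences were fitted with limma 3.58.1 (R 4.3.3) over all 19938 genes, with two-sided p-values adjusted by Benjamini-Hochberg and called under 0.05. Background was a log2 mean of at most 5.45, the 90th percentile of 1015 olfactory receptor genes. The fit was tested on simulated data. The members and lists were chosen with earlier results of these data known. Values in every array are given for the synaptic genes, for genes the study names, for any called gene and for the 8 other SNARE genes of smallest p, and for each regulator list the 3 genes of smallest p are named. Alternatives were a new quantile normalisation, median centring, the background filter, the mean of probe sets, a robust prior with an intensity trend, array weights, a replicate block, the interquartile range covariate, leaving out arrays, and the rank statistic. That statistic ranked the fold changes of 25 array pairs, took a mean rank with 0.25 of them trimmed at either end and called the tails at 0.025 and 0.975. Promoter windows came from RefSeq, GRCm38.p6.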

Additional observations from a re-analysis of the deposited data

Results flagged for a closer look

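Snap47, a SNARE of the Snap25 family that lacks a membrane anchor, had 1 control sample far from the others. Control replicate 2 measured 11.32, and the other 4 controls lay between 11.17 and 11.19, so that its gap to them was 0.873 of the whole range, above the critical value of 0.71 for 5 samples. It was the only such sample among 100 groups of 5 arrays (50 genes), where chance gives about 1 in 20. Of the 33 SNARE genes above background, the same array held the lowest of the 10 values for 11 and the highest for 6.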

How the results depend on the processing

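Limma called 0 SNARE genes, synaptic or other, and 0 regulators with all arrays and under each of 19 alternatives, and the smallest adjusted p over these ranged from 0.0699 (without control replicate 3) to 0.588 (interquartile range covariate). The rank statistic called 1 SNARE gene, 1 of the other SNARE genes, which was Stx11. The count of all genes called went from 159 to 94 with the replicate block, 46 with the interquartile range covariate, 689 with the rank statistic and 70 to 232 when each array was left out in turn. Cell type marker genes called went from 0 to 1 with median centring, the background filter, the intensity trend with robust prior, array weights or the replicate block, to 6 with the rank statistic, and to between 0 and 2 when arrays were left out. The correlations of same-numbered deviations were 0.062, 0.0088, 0.040, 0.22 and -0.33, and the main fit did not pair mice by replicate number. Dp1Yey replicate 4 was the only one whose best-matching control had its own number. Pairing by litter or processing was not tested. Under the replicate block, 7 SNARE genes again had an unadjusted p under 0.05 (limma), with a smallest adjusted p of 0.172. They were 20.6% of the SNARE genes, against 17.3% of all genes under that fit. The median difference of the synaptic genes was 0.064 to 0.12 and that of the other SNARE genes 0.033 to 0.050 when each array was left out in turn, against 0.040 and 0.031 without control replicates 1 and 2 together and 0.037 and 0.018 with the interquartile range covariate.

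Differences that changed sign belonged to 15 SNARE genes, none over 0.082 in size with all arrays, and to the regulator Unc13d. With the interquartile range covariate they were Gosr1 -0.013, Sec22b -0.015, Stx16 -0.0083, Stx18 -0.059, Stx4a -0.028, Stx5a -0.014, Stx6 -0.0083, Use1 -0.072, Vamp7 -0.0032, Vamp8 -0.0095, Vamp3 0.026, Vamp4 0.076 and Unc13d 0.0015. Without control replicates 1 and 2 they were Snap23 0.0065, Stx18 -0.014, Stx5a -0.0029, Vamp3 0.071, Vamp4 0.033 and Vamp7 -0.044. With array weights they were Snap23 0.014, Stx5a -0.0059, Vamp3 0.053, Vamp4 0.027 and Vamp7 -0.014. A new quantile normalisation gave Snap47 -0.023, Stx16 -0.019, Stx5a -0.0016 and Vamp7 -0.0021, and median centring gave Vamp3 0.0018 and Vamp4 0.0070. The trimmed mean of the rank statistic gave Stx19 -0.0013, Vamp3 0.010 and Vamp4 0.029. Leaving out each array in turn gave -0.040 to 0.018 for Snap23, -0.017 to 0.028 for Snap47, -0.025 to 0.040 for Stx16, -0.017 to 0.020 for Stx19, -0.014 to 0.042 for Stx5a, -0.032 to 0.078 for Use1, -0.046 to 0.049 for Vamp3, -0.030 to 0.053 for Vamp4, -0.0060 to 0.052 for Vamp7 and -0.013 to 0.12 for Vamp8. The cause of these changes was not tested.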
